A study of Homo sapiens with 8 samples.

Results

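The 41 genes described here encode the main protein-folding machinery of the cytosol, the mitochondria and the endoplasmic reticulum (ER), and they were found by symbol among the 63568 Ensembl genes of the count table. The list holds 7 cytosolic HSP70 and HSP90 genes, the small heat shock protein HSPB1, 4 cytosolic J-domain proteins, 6 cytosolic co-chaperones, the 8 genes of the CCT ring, 4 mitochondrial chaperones and 11 ER chaperones. The genes were listed by what their proteins do. All 41 were in the table.

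The cells were MIAPaCa-2, an established pancreatic cancer line of epithelial type, and carried either a control hairpin (shRNA-Control) or a hairpin against METTL3 (shRNA-METTL3), the catalytic subunit of the writer of N6-methyladenosine (m6A) in mRNA. In methylated RNA immunoprecipitation sequencing (MeRIP-seq), fragmented RNA was precipitated with an anti-m6A antibody and part of it was kept as input. The 8 samples form 4 groups, m6A and input for each hairpin, and the 2 samples of each group are sequencer lanes (L001 and L002) of 1 library from 1 line per hairpin. The question was which mRNAs lose m6A and change in level in METTL3-knockdown (KD) cells, and for the chaperones it was answered from reads per gene in the inputs and from the peaks of m6A over input.

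Chaperones hold unfolded proteins and release them in folded form. HSP70 proteins bind short exposed segments in cycles of ATP hydrolysis that J-domain proteins start and nucleotide exchange factors such as HSPH1 end, while HSP90 proteins finish many kinases and receptors, handed over by STIP1 and CDC37. The CCT ring closes around actin and tubulin, HSPD1 with its lid HSPE1 does the like in mitochondria, and HSPA5, HSP90B1, the lectins CALR and CANX and the disulfide isomerases fold secretory proteins in the ER. Heat shock factor 1 drives the cytosolic heat-inducible members, and the unfolded protein response drives the ER members.

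The depth of the inputs sets what can be said of these genes. The control input held 3237968 reads counted in genes, 1609215 and 1628753 by lane, and the METTL3-KD input held 1833005, 906240 and 926765 by lane. The reads of the control input fell on 2730 genes and those of the KD input on 10463. In the control, many genes shared nearly the same read number, with the lower of the main modes at 512 reads, against 19.4 reads in the KD. Reads divided by this lower mode are called mode units below. A unit was taken as about the reads that 1 distinct fragment received, which is an assumption from the shape of the counts. All genes together came to 6324 mode units in the control and 94680.5 in the KD. The peak caller, which kept 1 read per position, held 9291 input positions in the control and 52141 in the KD. That is 310 and 25.7 reads per position. By that measure mode units may undercount fragments in the control and overcount them in the KD, where intervals may be too narrow. METTL3 had 0 reads in all 4 lanes, so the knockdown could not be checked in these counts. KRT8, KRT18 and VIM were read in every lane, the leukocyte genes PTPRC and CD3E had 0 reads in every lane, and the epithelial genes EPCAM and CDH1 were also at 0, while the fibroblast gene COL1A2 had 1804 control and 353 KD reads and COL1A1 had 0.

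With 1 library per condition, no p-value was computed. Differences are given as the log2 ratio of counts after TMM scaling (trimmed mean of M values), KD over control, with a prior count of 2, and intervals are exact 95% Clopper-Pearson intervals on mode units, which cover counting error only. In bulk RNA of this kind, fewer cells with a transcript and less of it per cell cannot be told apart. The lanes of a library differed by no more than counting noise over the chaperones. The chi-square of the lane counts per degree of freedom was 0.89 over 24 genes of the control and 1.02 over 40 genes of the KD, and the lanes were summed.

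Most chaperone mRNAs were present in KD cells, and a part of them was seen in the control. In the KD input, 40 of the 41 genes had at least 10 reads, against 15.1% of all genes of the table, and the exception was BAG3, a nucleotide exchange factor with 0 reads in all 4 lanes. In the control input, 26 had at least 1 read and 24 had at least 10, against 3.48% of all genes of the table. Of the 40 with at least 10 KD reads these 24 stand beside 19.5% of all genes at that level. Among genes with at least 100 KD reads, 22 of 34 chaperones had at least 10 control reads, against 39.7% of all such genes. Together the chaperones took 1.27% of control reads (95% Wilson interval on mode units 1.02 to 1.57%) and 0.985% of KD reads (0.924 to 1.05%), which is 80.5 mode units in the control and 933 in the KD.

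**Figure D1:**
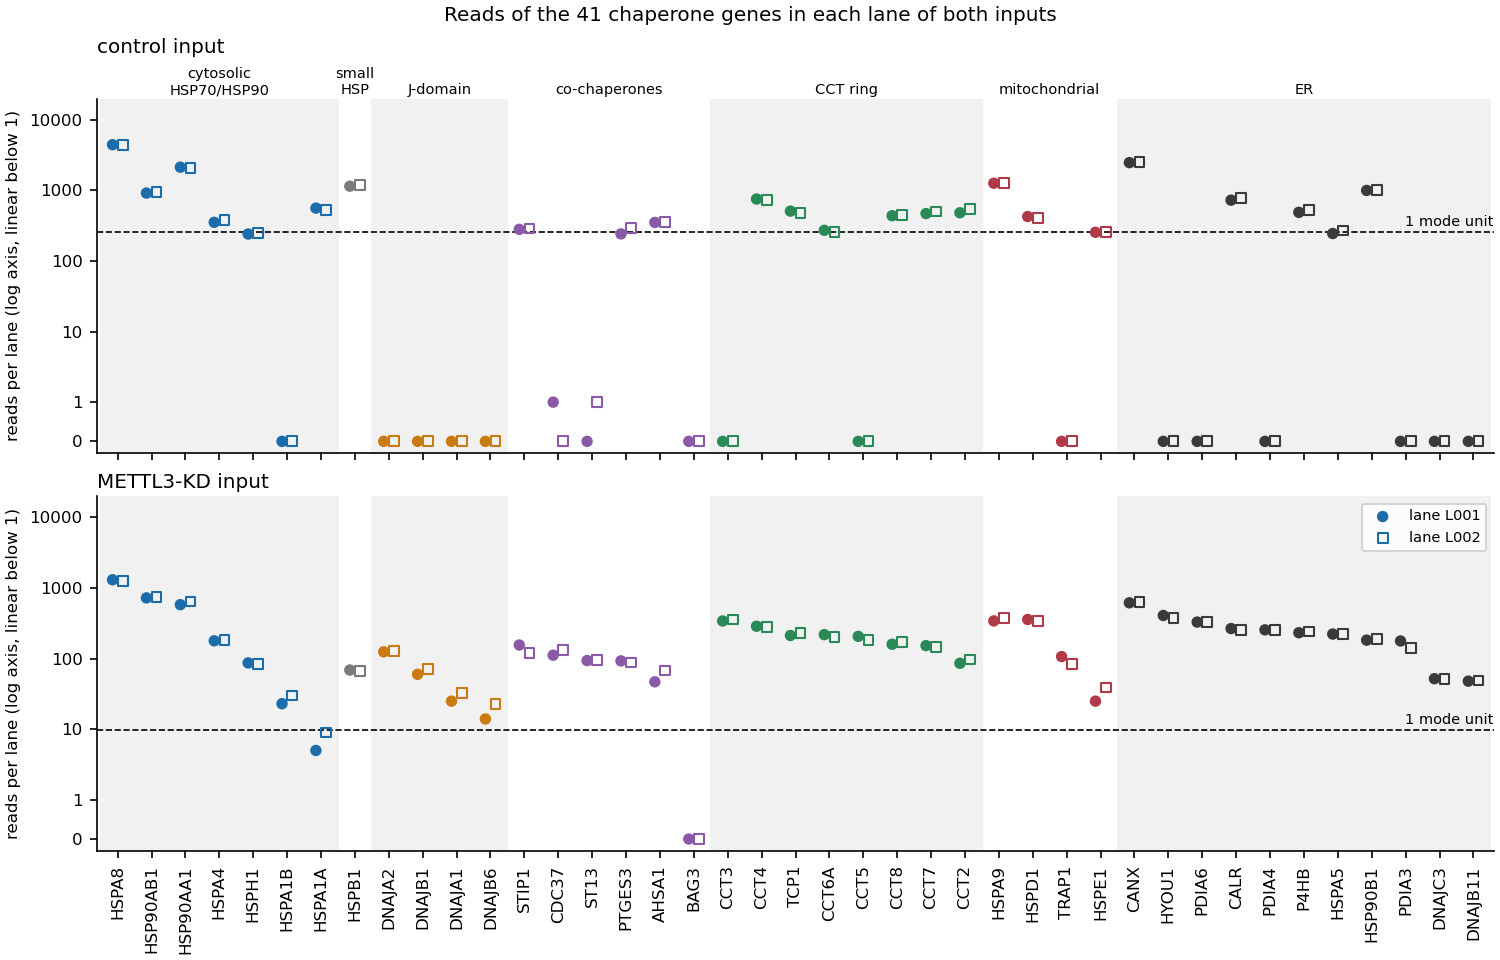
Reads of each of the 41 chaperone genes in lanes L001 (filled circles) and L002 (open squares) of the control input (top) and the METTL3-KD input (bottom), on a log axis that is linear below 1, with genes grouped by role. The dashed line marks 1 mode unit per lane. 15 genes lie at 0 in both control lanes, and BAG3 also lies at 0 in both KD lanes.

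The cytosolic HSP70 and HSP90 genes had the most chaperone reads in both inputs. HSPA8 (ENSG00000109971, chr11:122928197-122933938, hg19), the constitutive HSP70, had 4441 and 4398 control reads by lane and 1311 and 1254 KD reads. Per kilobase of mRNA it was the highest chaperone in both inputs, at 1206 in the control and 618.1 in the KD in RPKM, reads scaled to mRNA length and library size. Its log2 ratio was 0.46 (interval -0.27 to 1.28), so the difference was within counting error.

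The cytosolic HSP90 genes were also among those with many reads. HSP90AA1 (ENSG00000080824, chr14:102547079-102606036) had 2134 and 2093 control reads and 582 and 645 KD reads, a log2 ratio of 0.46 (-0.59 to 1.71). HSP90AB1 (ENSG00000096384, chr6:44213903-44221625), the constitutive form, had 917 and 945 control reads and 726 and 743 KD reads, a log2 ratio of 1.90 (0.43 to 3.94). HSP90AB1 was the only 1 of the 24 chaperones with at least 10 reads in each input whose interval excluded 0 under TMM scaling, and with scaling to total counts its ratio was 0.48. Of all 1871 genes with that many reads, the interval lay above 0 in 5.61% and below 0 in 2.51%. By point values alone, the order of levels of the HSP90 genes differed by input. HSP90AA1 stood at 404.4 RPKM and HSP90AB1 at 225.1 RPKM in the control, whereas in the KD they stood at 207.4 and 313.7 RPKM. The control values rest on 8.26 mode units for HSP90AA1 and 3.64 for HSP90AB1. As shares of the chaperone reads, their intervals on mode units overlapped in the control (5.15 to 18.5% and 1.96 to 12.2%). They also overlapped in the KD (5.31 to 8.55% and 6.56 to 10.1%), so the order was resolved in neither input.

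The remaining cytosolic HSP70 family members were low. HSPA4, an HSP110-type exchange factor, had 353 and 384 control reads and 179 and 184 KD reads (log2 ratio 1.22, -1.10 to 5.24). HSPH1, of the same type, had 241 and 252 control reads and 87 and 85 KD reads (0.73, -2.16 to 6.36). HSPA4 lay at 1.44 and HSPH1 at 0.963 mode units in the control, and the intervals were wide for that reason.

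The heat-inducible HSP70 genes HSPA1A (ENSG00000204389, chr6:31783320-31785723) and HSPA1B (ENSG00000204388, chr6:31795515-31798031) are near-identical copies, and how the authors' counting split reads between them is not stated. HSPA1A had 561 and 523 control reads and 5 and 9 KD reads. HSPA1B had 0 and 0 control reads and 23 and 30 KD reads. The copies thus lay in opposite directions, HSPA1A higher in the control and HSPA1B read in the KD alone, and their sum is the safer value. The sum was 1084 reads in the control and 67 in the KD, a log2 ratio of -1.77 (-4.69 to 1.64), which is within counting error. HSPA1A alone had a log2 ratio of -3.96 (-11.59 to 0.41).

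HSPB1 (ENSG00000106211, chr7:75931990-75933612) encodes the small heat shock protein HSP27, which keeps unfolded proteins soluble without ATP. Among chaperones with at least 10 reads in each input, it had the lowest log2 ratio after HSPA1A. HSPB1 had 1148 and 1199 control reads and 69 and 67 KD reads, which is 4.58 mode units in the control and 7.02 in the KD. Per length it was the second of the list in the control at 932.9 RPKM, above HSP90AA1, and 14th in the KD at 95.5 RPKM. Its log2 ratio was -1.86 (-3.77 to 0.22), which is within counting error. Scaled to the sum of the chaperone reads instead, HSPB1 took 5.69% in the control (95% Wilson interval on mode units 2.70 to 13.8%) and 0.753% in the KD (0.364 to 1.54%). These intervals did not overlap. The same comparison was made for all 41 genes, and the share interval was wholly lower in the KD for HSPB1 and HSPA1A and wholly higher for 0. No such share was computed for other genes of the table. For HSPA1A with HSPA1B the share was 2.63% (0.688 to 8.66%) against 0.371% (0.109 to 0.941%), so the intervals of the pair met.

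Heat shock factor 1 binds inverted repeats of GAA, and the promoters of the chaperones were searched for them. The motif GAANNTTC, which reads the same on both strands, was searched from 250 bases before to 50 after the gene start in RefSeq promoters of GRCh38.p14, with 38 of the 41 genes matched and PDIA3, ST13 and CCT6A unmatched. It was present in 13 of the 38 chaperones and in 8.21% of all 27305 genes of that table. By role it was present in 5 of 7 cytosolic HSP70 and HSP90 genes, in HSPB1, in 3 of 4 J-domain genes, in 2 of 7 CCT genes, in 1 of 4 mitochondrial and 1 of 10 ER genes, and in 0 of 5 co-chaperones. The matches shown here, with GAA and TTC in capitals, are 1 for each cytosolic HSP70 and HSP90 gene that held the motif and the one of HSPB1, and HSPA8 and HSP90AB1 each held a further match that is not shown. They lie on the transcribed strand at chr11:123062175-123062190 (minus), chr14:102087116-102087131 (minus), chr6:44247832-44247847 (plus), chr6:31815433-31815448 (plus), chr6:31827629-31827644 (plus) and chr7:76302487-76302502 (plus).
HSPA8: tctgGAAggTTCtaag
HSP90AA1: tccgGAAggTTCggga
HSP90AB1: tctgGAAgcTTCtgga
HSPA1A: cctgGAAtaTTCccga
HSPA1B: cctgGAAtaTTCccga
HSPB1: gagaGAAggTTCcaga
The stretches of HSPA1A and HSPA1B were identical. Of the 13 genes with a match, HSPA1A at -3.96 had the lowest log2 ratio and DNAJA1, DNAJB1, DNAJB6 and HSPA1B had no control reads. A match is a description of the letters in this window and not a measured binding site.

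As a group, the 7 cytosolic HSP70 and HSP90 genes held 17242 control reads and 5863 KD reads, 0.532% (0.385 to 0.750%) and 0.320% (0.286 to 0.358%) of the libraries. The log2 ratio of the sums was 0.69 (0.18 to 1.25) under TMM and -0.74 with total counts. The direction of this group therefore turned with the scaling. The HSP70 and HSP110 genes had a ratio of 0.43 (-0.22 to 1.15) and the HSP90 genes of 1.07 (0.22 to 2.06), and these intervals overlapped.

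Of the factors that serve HSP70 and HSP90, the J-domain proteins were read only in the KD input. DNAJA1, DNAJA2, DNAJB1 and DNAJB6, which deliver clients to HSP70 and trigger its ATP hydrolysis, had 0 reads in both control lanes. In the KD lanes DNAJA2 had 125 and 127 reads, DNAJB1 60 and 71, DNAJA1 25 and 33, and DNAJB6 14 and 23. A control count of 0 allowed up to 3 mode units, or 474 CPM (counts scaled to library size), and no J-domain gene reached the 323 KD reads that would place it above that floor after scaling. A difference was therefore not detectable at this depth for any of the 4. The same holds for the HSP90 co-chaperone CDC37, which brings kinases, with 1 and 0 control and 112 and 134 KD reads, and for ST13, which binds HSP70, with 0 and 1 control and 94 and 95 KD reads.

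Of the co-chaperones, 3 had at least 10 reads in each input, at 1.05 to 1.38 mode units in the control. STIP1, which links HSP70 to HSP90, had 281 and 288 control and 156 and 121 KD reads (log2 ratio 1.20, -1.40 to 6.16). AHSA1, the activator of the HSP90 ATPase, had 352 and 353 control and 47 and 68 KD reads (-0.37, -3.14 to 3.95). PTGES3, the p23 protein that stabilizes closed HSP90, had 242 and 295 control and 93 and 88 KD reads (0.68, -2.11 to 5.92). None of these intervals excluded 0.

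The CCT ring is built of 8 different subunits, each from a gene of its own. In the KD input all 8 were read, within a range of 52.1 to 193.7 RPKM and a median of 93.3 RPKM. CCT3 (ENSG00000163468, chr1:156278759-156337664) was the highest with 342 and 360 reads, and CCT2 was the lowest per length with 86 and 97 reads. In the control input, 6 were read and CCT3 and CCT5 had 0 reads in both lanes, so the highest subunit of the KD was at 0 in the control.

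The 6 subunits read in both inputs lay close together in the control. CCT4 had the most control reads, 755 and 735, with 288 and 283 in the KD, and CCT6A the fewest, 272 and 255, with 219 and 201 in the KD. TCP1, the subunit after which the ring was first named, had 509 and 482 control and 213 and 230 KD reads. CCT2, CCT7, CCT8 and TCP1 stood within 0.25 log2 units of the taller mode of the control, 1038 reads, and CCT6A within the same distance of the lower mode. The log2 ratios of the 6 ran from -0.24 in CCT2 to 1.91 in CCT6A with a median of 0.85, and each interval contained 0.

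CCT3 and CCT5 (207 and 185 KD reads), with a control count of 0, were compared with the floor of 3 mode units. Under TMM the KD value of CCT3 was 2.17 times the floor and that of CCT5 1.21 times. With total counts they were 0.807 and 0.451 times the floor. The KD count was taken as exact here, so these are not lower bounds of a difference. The ring as a whole held 5886 control and 3343 KD reads, 0.182% of each library (0.0972 to 0.311% and 0.157 to 0.212%). Its log2 ratio was 1.43 (0.57 to 2.44) under TMM and 0.00 with total counts.

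**Figure D2:**
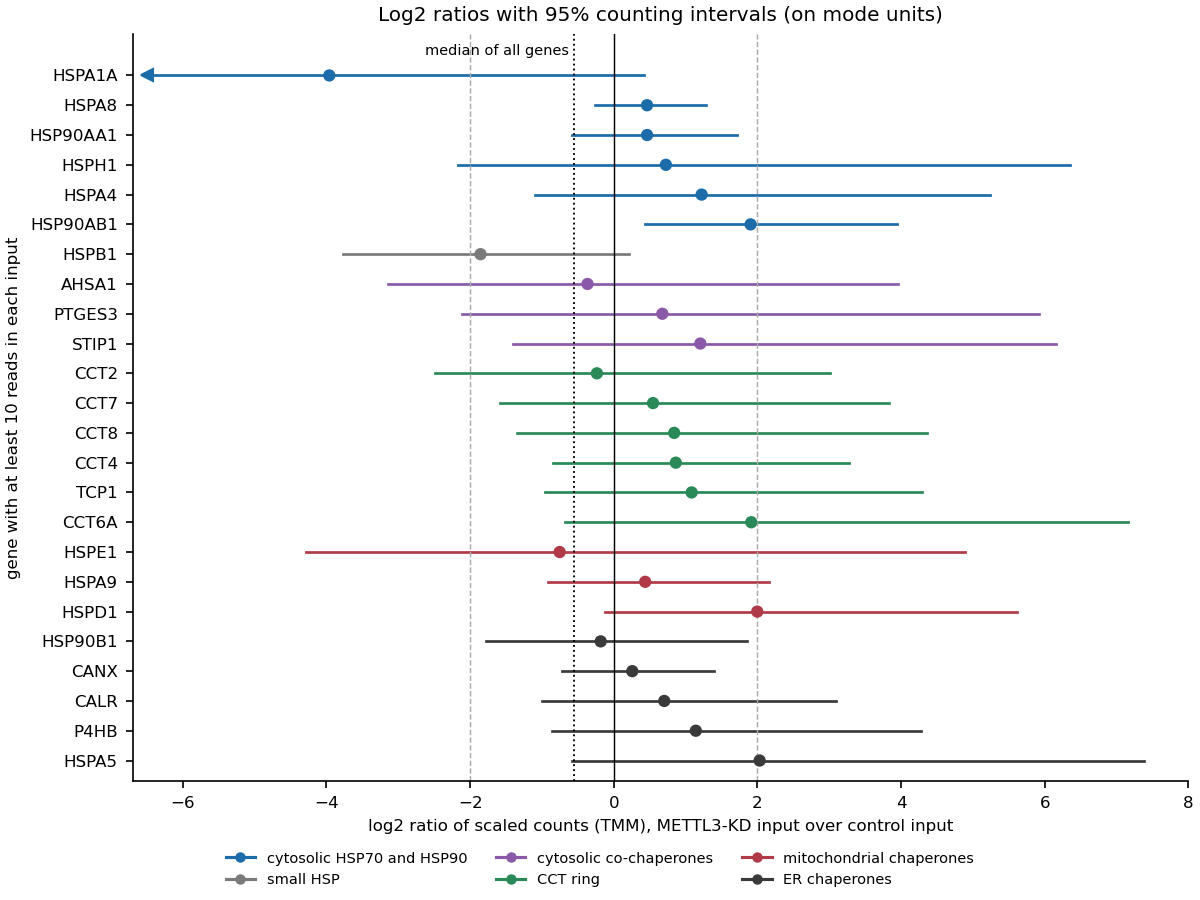
Log2 ratio of TMM-scaled counts, METTL3-KD input over control input, for the 24 chaperones with at least 10 reads in each input, coloured by group. Lines are 95% counting intervals on mode units (an arrow marks the interval of HSPA1A, which runs to -11.59), dashed lines mark -2 and 2, and the dotted line marks the median of all genes, -0.56. HSPA1A and HSPB1 lie farthest to the left, and of the 24 intervals that of HSP90AB1 excludes 0.

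In mitochondria, HSPA9 (ENSG00000113013, chr5:137889445-137911364), the matrix HSP70 that also pulls in imported proteins, had 1264 and 1258 control reads and 343 and 376 KD reads (log2 ratio 0.44, -0.92 to 2.16). HSPD1 (ENSG00000144381, chr2:198351308-198381461), the HSP60 barrel, had 426 and 408 control reads and 359 and 344 KD reads (2.0, -0.12 to 5.61). HSPE1 (ENSG00000115541, chr2:198364864-198368173), its HSP10 lid, had 255 and 260 control reads and 25 and 39 KD reads (-0.75, -4.28 to 4.89).

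HSPD1 and HSPE1 are neighbours on opposite strands of chromosome 2 whose annotated spans overlap, and the use of strand in counting is not stated, so reads between them may be assigned to either. Their order per length differed by input. HSPE1 stood at 285.5 RPKM and HSPD1 at 114.7 RPKM in the control, and at 62.7 and 170.8 RPKM in the KD, but HSPE1 was at 1 mode unit in the control and the interval of each ratio contained 0. TRAP1, the mitochondrial HSP90, had 0 control reads and 107 and 85 KD reads, under the floor. The group held 3871 control and 1678 KD reads, 0.120% (0.0641 to 0.249%) and 0.0915% (0.0745 to 0.113%). Its log2 ratio was 1.04 (-0.03 to 2.34), and -0.39 with total counts.

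The ER chaperones were the second largest group. CANX (ENSG00000127022, chr5:179105629-179158642), the membrane lectin that holds glycoproteins, had 2475 and 2512 control reads and 618 and 637 KD reads (log2 ratio 0.26, -0.72 to 1.40). HSP90B1 (ENSG00000166598, chr12:104323885-104347709), the ER HSP90, had 999 and 1012 control reads and 183 and 190 KD reads (-0.18, -1.78 to 1.85). CALR, the soluble lectin, had 728 and 789 control reads and 267 and 253 KD reads (0.70, -1.01 to 3.09). None of these differed beyond counting error.

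HSPA5 (ENSG00000044574, chr9:127997132-128003661), the ER HSP70 also called BiP, had 245 and 270 control reads and 223 and 222 KD reads. Its log2 ratio of 2.03 (-0.58 to 7.38) was the highest of the 24 chaperones with at least 10 reads in each input and rests on about 1 mode unit of the control. P4HB, the main disulfide isomerase, had 489 and 534 control reads and 233 and 243 KD reads (1.14, -0.86 to 4.27).

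The other 6 ER genes had 0 reads in both control lanes. HYOU1, the exchange factor of HSPA5, had 409 and 381 KD reads, PDIA6 330 and 334, PDIA4 256 and 257, PDIA3 178 and 142, DNAJC3 52 and 52, and DNAJB11 48 and 49. Under TMM the KD values of HYOU1, PDIA6 and PDIA4 were 2.44, 2.05 and 1.59 times the floor, and with total counts 0.909, 0.764 and 0.590 times. The KD count was again taken as exact, so these are not lower bounds of a difference. PDIA3, DNAJC3 and DNAJB11 stayed under the floor. The ER group held 10053 control and 5557 KD reads, 0.310% (0.205 to 0.488%) and 0.303% (0.270 to 0.340%) of the libraries. Its log2 ratio was 1.39 (0.73 to 2.13), and -0.03 with total counts.

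A further letter pattern was present in a part of the ER promoters and not in those of the other groups. The ER stress element, CCAAT and CCACG with 9 bases between them, to which factors of the unfolded protein response bind, was searched on both strands of the same promoters. It was present in 5 of 10 ER chaperones, in 0 of the other 28 chaperones and in 0.0916% of all 27305 genes. The 6 matches are shown with the CCAAT and CCACG letters in capitals, the reverse complement ATTGG and CGTGG where the element lies on the other strand (CALR and the second of HSP90B1). They lie at chr9:125241387-125241413 (minus), chr12:103930212-103930238 (plus), chr12:103930317-103930343 (plus), chr19:12938380-12938406 (plus), chr5:179698774-179698800 (plus) and chr2:10812849-10812875 (minus) of GRCh38.p14.
HSPA5: ttcaCCAATcggcggcctCCACGacgg
HSP90B1: ctgaCCAATcggaaggagCCACGcttc
HSP90B1: ggtgCGTGGtgcggcgcgATTGGtggg
CALR: cacgCGTGGtcgaccatcATTGGtcgg
CANX: ccggCCAATcttcacactCCACGaaga
PDIA6: cggaCCAATgagccgcagCCACGgctt
Of these 5 genes, 4 had at least 10 reads in each input, with log2 ratios of -0.18 for HSP90B1, 0.26 for CANX, 0.70 for CALR and 2.03 for HSPA5, and PDIA6 was read in the KD alone.

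**Figure D3:**
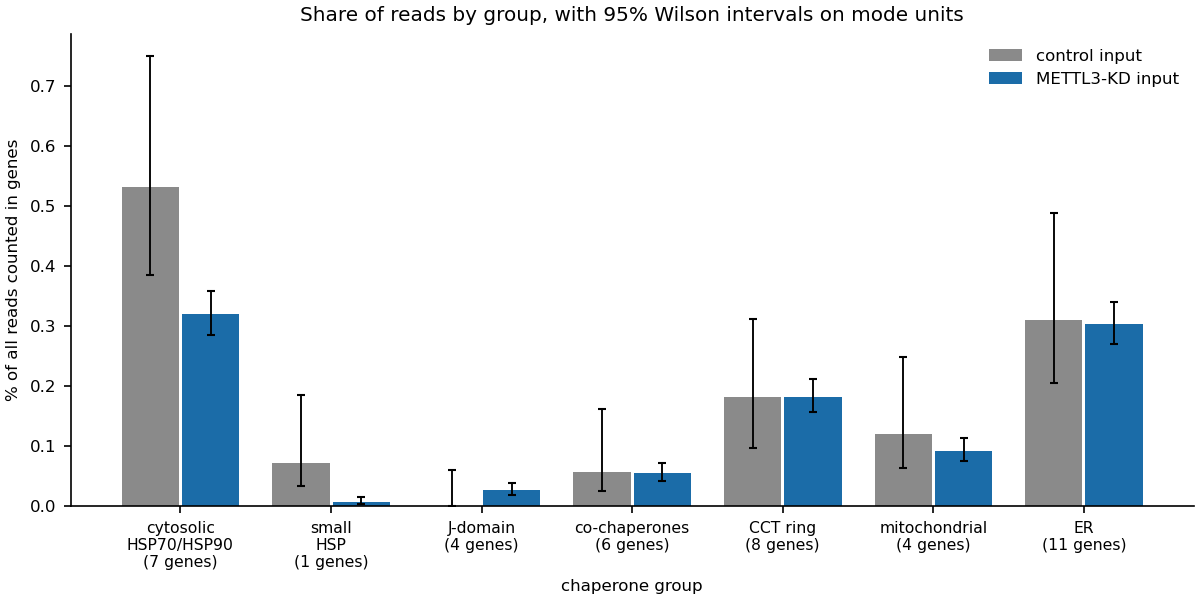
Share of all reads counted in genes that each chaperone group took in the control input (grey bars) and the METTL3-KD input (blue bars), in percent, with 95% Wilson intervals on mode units as error bars. The shares of the CCT ring (0.182% in both) and the ER chaperones (0.310% and 0.303%) are nearly the same in both inputs, while those of cytosolic HSP70 and HSP90 (0.532% and 0.320%) and of the small HSP (0.0725% and 0.00742%) are lower in the KD.

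Set side by side, the shares of the groups differed between inputs as follows. The intervals of cytosolic HSP70 and HSP90 and of HSPB1 did not overlap between inputs, and both shares were lower in the KD. A lower share in the KD was common among genes read in both inputs. With total counts, the median log2 ratio of the 1871 genes with at least 10 reads in each input was -1.98. The cytosolic group stood at -0.74 and HSPB1 at -3.29 on that scale. How many of all genes had intervals that did not overlap was not computed. The intervals of the CCT ring, the mitochondrial, the ER and the J-domain genes and the co-chaperones (0.0560% and 0.0550%) overlapped. Shares of reads depend on what the rest of each library held. After TMM scaling the cytosolic group lay at 0.69, beside 1.04 for the mitochondrial, 1.39 for the ER and 1.43 for the CCT group, and all 4 intervals overlapped. TMM rests on genes read in both inputs, and 74.3% of all genes tested had 0 control reads. It set effective library sizes of 5310006 for the control and 1117741 for the KD, so the sign of these ratios depends on that choice.

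By the size rule of a log2 ratio beyond 2, 17 of the 40 chaperones tested were higher in the KD, against 79.2% of all 9931 genes tested, and 1 was lower (HSPA1A), against 7.2%. Of the 17, 16 had 0 or 1 control reads and the other was HSPA5, so the count mostly restates which genes had no control reads. Such genes were 14 of the 40 chaperones (35%), counting 0 reads alone, and 74.3% of all genes tested. The median log2 ratio of the 40 was 1.56, against 5.64 over all genes tested, and it was 0.45 when the 16 genes with under 10 control reads were set to the floor of 3 mode units.

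Over the 24 chaperones with at least 10 reads in each input, the median was 0.69, with 6 below 0, against 62.5% below 0 and a median of -0.56 over all 1871 genes of that kind. These 1871 genes were not matched to the chaperones by level. A single control fragment brought about 512 reads, so a gene with few KD reads that passed the filter has a low ratio by construction. The contrast between chaperones and all genes therefore cannot be separated from level. By the same size rule 1 of the 24 was above 2, against 8.02%, and 1 was below -2, against 20.4%. HSPA1A, HSPB1 and HSPE1 were the 3 that lay below the median of all genes. The sign depended on the scaling. DESeq2 size factors moved the median of all 1871 genes by 0.24 and gave 4 chaperones below 0 and 20 above, whereas total counts moved it by -1.42 and gave 20 below 0 and 4 above, with a chaperone median of -0.73. Relative to all genes the chaperone median was higher under each of the 3 scalings, since every gene moves by nearly the same amount.

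**Figure D4:**
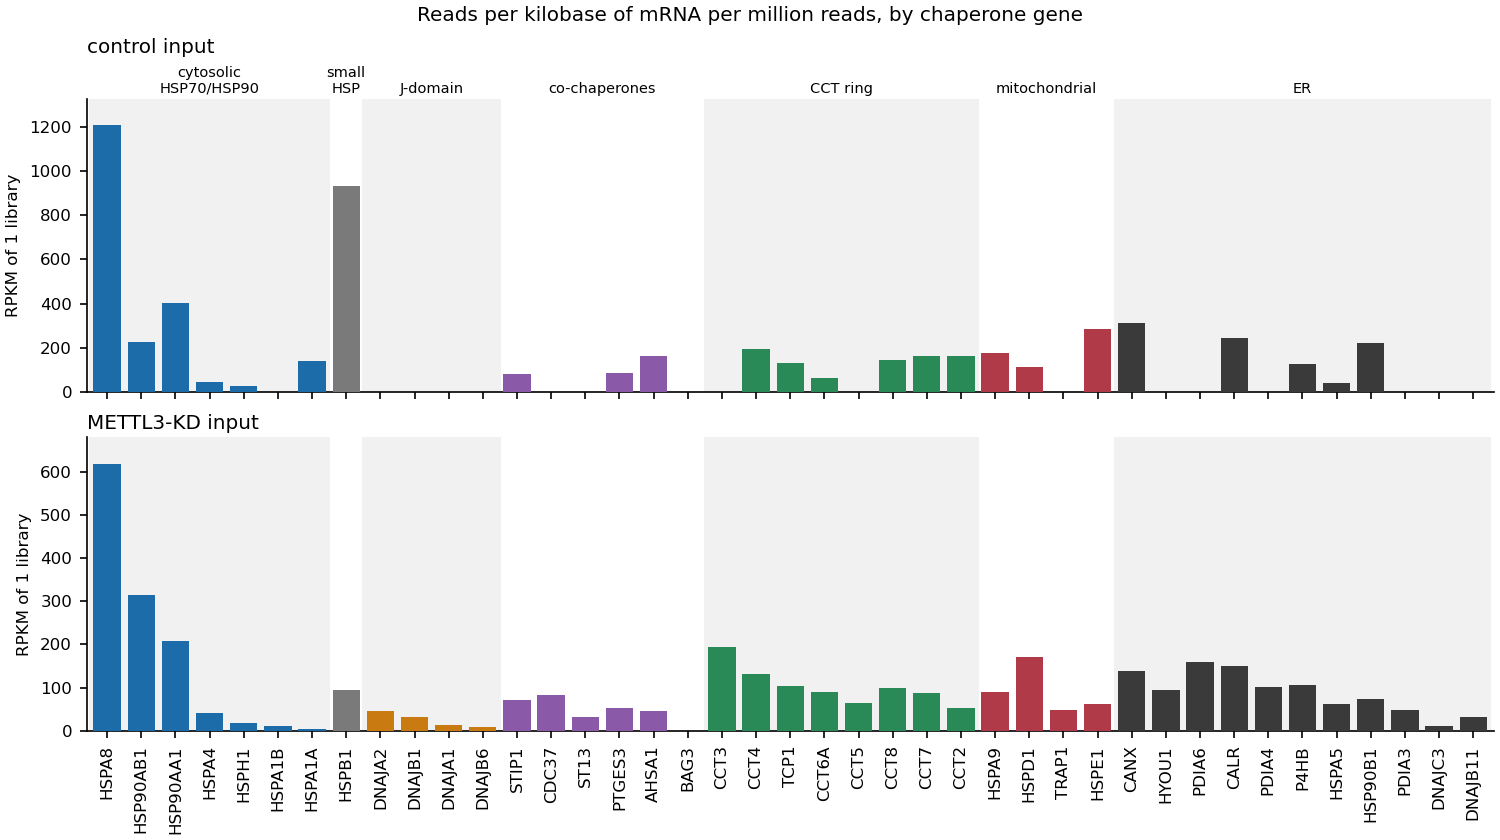
Level per length of each chaperone, in reads scaled to canonical mRNA length and library size (RPKM), in the control input (top) and the METTL3-KD input (bottom), 1 library each, coloured by group. HSPA8 is the highest in both (1206 and 618.1 RPKM), HSPB1 is second in the control at 932.9 RPKM and 14th in the KD at 95.5 RPKM, and genes without control reads, such as CCT3 and PDIA6, reach 193.7 and 158.9 RPKM in the KD.

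Peaks of m6A over input were found in the exons of few chaperones. With q under 0.01, the control list had 13 peaks in exons of 9 chaperones and the KD list had 1 peak in 1 chaperone. No chaperone was in both lists. With 1 chaperone in the KD list this says little, and the share of all genes in both lists was not computed. Of the 34 chaperones with at least 100 KD reads, 8 (23.5%) had a control peak, against 25.6% of all protein-coding genes at that level, and TRAP1 alone had a KD peak, against 4.79%, or 3.87% of all protein-coding genes with at least 10 reads. A control peak was in 15.4% of the latter. The share of chaperones with a peak was thus near that of other genes. The whole control list held 2298 peaks and the KD list 830 at this threshold.

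By group the control peaks lay in 4 of 8 CCT genes (CCT3, CCT5, CCT6A and CCT7), in 3 of 11 ER genes (HSPA5, HYOU1 and PDIA3), in the J-domain gene DNAJB1 and in the co-chaperone BAG3. The cytosolic HSP70 and HSP90 genes, HSPB1 and the mitochondrial genes had 0 control peaks, although HSPA8 had the most input reads of all chaperones in both inputs. The peaks were shallow. Their pileup, the number of distinct m6A fragments at the summit after duplicates were removed, was 1 in 5 peaks, 2 in 6 and 3 in 2, and the fold over background ran from 2.0 to 4.0. Of the 9 genes, 6 had 0 control input reads, and BAG3 had 0 input reads in both cells. Among all protein-coding genes with a control exon peak and at least 10 input reads, 76% had 0 control input reads.

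The taller control peaks were in DNAJB1 and CCT6A. DNAJB1 had a peak in its last exon, in the 3′ untranslated region (UTR), at chr19:14626016-14626117 (hg19) with a pileup of 3 and a fold of 4.0. CCT6A had a peak in the coding part of exon 9 of 14 at chr7:56127235-56127334 with a pileup of 3 and a fold of 3.93, and a peak of pileup 1 in its 3′ UTR. HSPA5 had the longest peak, 268 bases in exon 1 of 8 (chr9:128003331-128003598), with its summit in the coding part and a pileup of 2. By the annotation of the summit, 4 control peaks were in coding sequence, 3 in a 3′ UTR, 1 in the 5′ UTR of BAG3 and 1 in the UTR of a further transcript of HYOU1, and 4 had their summit in an intron while overlapping an exon.

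The 1 KD peak was in TRAP1, in the coding part of exon 12 of 18 at chr16:3716021-3716125, with a pileup of 4 and a fold of 4.99. TRAP1 had 0 reads in the control input, as had 63.2% of the protein-coding genes with a KD exon peak and at least 10 reads. A further KD peak of pileup 1 lay in an intron of DNAJB6 (chr7:157135480-157135579).

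METTL3 methylates adenosine mostly in GGACU and related pentamers, and pentamers that end in ACT after letters that are each G or A were searched on the transcript strand of each peak. Of the 13 control peaks 6 held at least 1, against 30.7% of the 1586 control peaks in exons of protein-coding genes, and the TRAP1 peak held 1, against 33.7% of 433 KD peaks. Shown next are the peaks with a summit in coding sequence and a match. The sequences around the pentamer nearest the summit are in hg19, with the pentamer in capitals. They lie at chr7:56127300-56127324 (plus), chr2:73466789-73466813 (plus), chr9:128003424-128003448 (minus) and chr16:3716104-3716128 (minus), the first 3 from control peaks and the last from the KD peak.
CCT6A: gggacatgcaGGACTtgtatatgag
CCT7: ttgaaagaggGGACTgatagctccc
HSPA5: gcctgtggctGGACTgcctgctgct
TRAP1: tttctgtaggAAACTccgggacgtt
All 3 control matches shown held GGACT and the KD match held AAACT. Only the summit was placed by the annotation, not the pentamer. In HSPA5 the pentamer lies 57 bases from the summit, towards the transcript start, and may be outside the coding sequence. The pentamer alone does not show that the adenosine was methylated. In the input, CCT6A, CCT7 and HSPA5 had log2 ratios of 1.91, 0.55 and 2.03, each within counting error, so none of the 3 had a lower level in the KD that these libraries could resolve.

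A wider list of 63 chaperone and stress-regulator genes, of which 62 were in the table, was also read mostly in the KD input. In it, 50 had a KD read and 7 had a control read, against 16.5% and 4.29% of all genes of the table. Of the 49 tested, 46 were above 2 on the log2 scale, 43 of them with 0 control reads, and 1 was below -2. Over all genes tested 79.2% were above 2, 7.2% were below -2 and 74.3% had 0 control reads. HSF1, the heat shock factor, had 0 control and 70 KD reads, and XBP1, a factor of the unfolded protein response, 0 and 54. TXNDC5, an ER disulfide isomerase, had 916 control and 317 KD reads (log2 ratio 0.72), DNAJC7, a J-domain co-chaperone, had 910 and 155 (-0.30), and BAG4, an HSP70 exchange factor, had 984 control and 0 KD reads.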

How the data were processed

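Per the methods, ribosomal sequences were filtered out with Bowtie2, the rest was aligned to hg19 by HISAT2, and genes were counted by featureCounts. The deposited counts are raw reads per gene and lane of the inputs. Library kits were stranded, but the annotation release, strand setting and treatment of multiply aligned reads are not given in the sources used here. Peaks were called by the authors with MACS2 2.1.1 on pooled lanes, m6A over input, extended to 100 bp with 1 read kept per position. The deposited pileup is a signal, the fold column a ratio to local background, and the −log10 columns hold p and q values (header q 0.05, methods 0.01, the latter used here).

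Here lanes were summed and scaled by TMM (edgeR 4.0.16, R 4.3.3; DESeq2 1.42.0 as an alternative) over genes with at least 10 reads, with symbols for 55665 of 63568 identifiers. Group sums carry intervals on mode units, and the steps were tested on simulated data. All 41 genes were described, grouped by role. Exons were from GENCODE 44 on GRCh37, peaks shared at least 1 bp with an exon, RPKM used the canonical mRNA length, and promoters were from RefSeq. Lane deviations of both inputs correlated at -0.0148 over 1871 genes, and lane numbers mark sequencer lanes, not paired cultures. The members and lists were chosen with earlier results of these data known.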

Additional observations from a re-analysis of the deposited data

How the results depend on the processing

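The choice of scaling changed the direction of the cytosolic, mitochondrial and ER groups. With total counts, the log2 ratio of summed reads was -0.74 for cytosolic HSP70 and HSP90 and -0.034 for the ER chaperones, both reversed, 0.0047 for the CCT ring and -0.39 for the mitochondrial chaperones, and 3 chaperones were below -2. The count below -2 was 2 at a threshold of 1 and 0 when the interval on the lower mode had to exclude 0. The count above 2 was 4 among genes with at least 10 reads in each input, where scaling also changed. It was 5 when the interval on the lower mode had to exclude 0 or, for genes with under 10 control reads, the floor had to be passed. These 5 (CCT3, CCT5, HYOU1, PDIA4 and PDIA6) had 0 control reads and passed by the floor, and with total counts 0 passed it. How many of all genes passed by the floor was not computed, so these counts cannot be read as particular to chaperones. Of all genes tested, 74.3% had 0 control reads. With the interval and floor on the taller mode, chosen after seeing the data, the counts were 0 and 3. Without its member with the most reads, the mitochondrial ratio was 1.76 (without HSPA9), the ER ratio 2.01 (without CANX), the CCT ratio 1.58 (without CCT4) and the cytosolic ratio 0.90 (without HSPA8). Leaving out 1 lane at a time gave counts above 2 of 16 to 20, 1 below -2, medians of 1.5 to 1.75, and ratios of 0.65 to 0.90 (cytosolic), 1.38 to 1.63 (CCT), 1.0 to 1.25 (mitochondrial) and 1.33 to 1.60 (ER). Lanes entered as replicates, with or without the lane as replicate block, gave 20 above 2, 1 below -2, a median of 1.73 and ratios of 0.85, 1.59, 1.20 and 1.55, and the pairing of lanes changed no call. For the 24 genes with at least 10 reads in each input, total counts changed the sign of 14 ratios, DESeq2 size factors of 2 and leaving out a lane of 0 to 2. None of these was HSP90AB1, the gene whose interval excluded 0 under TMM. With total counts its ratio was 0.48 and no interval was computed, so whether 0 stays excluded there was not tested. Of their 240 values over 10 alternatives, 236 stayed inside the counting interval. The 6324 mode units of the control, against 3237968 reads, set the width of the intervals.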
